A study of Homo sapiens with 8 samples.

Results

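The genes described here are 35 genes of protein folding, degradation and stress sensing in the endoplasmic reticulum (ER), the compartment in which secreted and membrane proteins are folded. The rule names the genes by function and uses no measured value, though it was drawn up with earlier results of these data known. The genes are taken from chaperones, disulfide enzymes, degradation factors and the sensors of the unfolded protein response. Where a gene had several probe sets, the one with the highest mean level stands for it. Of the 35 genes, 34 had a probe set of their own and 33 passed the filter on low values, out of 18239 genes in the table and 13002 that passed. TXNDC5, a protein disulfide isomerase, was measured only on probe sets that also name another gene and was not used. ERN1, the IRE1 sensor, lay between 3.91 and 4.09 on its probe set, under the filter level of 4.41, and was not tested.

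Total RNA was measured on 8 Affymetrix arrays, in log2 units, in 4 groups of 2. The cells were 2 human breast cancer lines with brain-metastatic ability, 231BrM/Dox/shMet and SKBrM3/Dox/shMet. Both lines carry a short hairpin against MET, a receptor tyrosine kinase, that doxycycline switches on. Each line was cultured in DMEM with 10% FBS, untreated or with 100 ng doxycycline (the volume is not given) for 48 h. The controls carry the hairpin too, and no group received doxycycline without it, so the effects of drug and hairpin cannot be told apart. The labels name neither clones nor separate cultures, so p-values reflect only the variation among these arrays, which may be technical. In bulk RNA, fewer cells expressing a gene and less of its RNA per cell cannot be told apart.

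MET was 9.45 and 9.26 on the 231BrM control arrays and 5.85 and 5.35 on the doxycycline arrays. On the arrays labelled SKBrM3 it was 9.25 and 9.20 without doxycycline and 5.76 and 5.71 with it. The fall was 13.5-fold in 231BrM and 11.3-fold in the other line (limma, adjusted p = 2.83e-05 and 1.30e-05). Markers of the second line were mixed. ERBB2, which is amplified in SKBR3, averaged 6.71 on the control arrays labelled SKBrM3 and 6.81 on those of 231BrM (adjusted p = 0.417). Of the genes beside ERBB2 on its amplicon, MIEN1 (8.92 against 8.19) and PGAP3 (6.36 against 6.05) were higher on the arrays labelled SKBrM3 (adjusted p = 0.000529 and 0.0368), while GRB7 and STARD3 were not called. VIM, a mesenchymal gene, averaged 12.75 and 12.89, and CDH1, the epithelial cadherin, lay under the filter in both lines. As ERBB2 and VIM go against the label, the wording "the arrays labelled SKBrM3" is used. Replicate 1 of 231BrM with doxycycline stood apart: 68 genes differed over 2-fold from replicate 2, against 0 or 1 in the other groups. Its 3' minus 5' signal, which grows as RNA shortens, was 1.24 for actin against 0.46 to 0.59 on the other arrays. Without it, 8 of the 33 genes had a 231BrM change of the other sign and 3 moved by over 0.2 log2 units (CALR, PDIA3 and PPIB). Values without that array stand beside those it moved most. Such a fit leaves 1 doxycycline array in 231BrM, assumed to vary like the other groups.

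As background, unfolded protein in the ER lumen draws the HSP70 chaperone HSPA5 away from 3 membrane sensors, ATF6, ERN1 and EIF2AK3. Cleaved ATF6 and the spliced form of XBP1 then raise transcription of chaperones and degradation factors, while EIF2AK3 (PERK) slows translation. Many secretory and tumour cells run this programme at a basal level. ATF6 with NF-Y binds the ER stress response element, ERSE, and a shorter form, ERSE-II. Both elements were searched in the promoter windows because they tie many of these genes to that programme.

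RefSeq (GRCh38.p14) gave promoter windows, from 250 bases before to 50 after the transcription start, for 30 of the 34 genes with a probe set. The promoters of PDIA3, SEC24D, DERL1 and DERL3 were not analysed here. The windows were searched on both strands for ERSE (CCAAT, 9 bases, CCACG), ERSE-II (ATTGG, 1 base, CCACG), the XBP1 core TGACGTG and the ATF4 composite TTGCATCA. ERSE was present in 8 of 30 (26.7%): HSPA5, HSP90B1, CALR, CANX, PDIA6, ERO1B, XBP1 and CRELD2. Among all 14492 genes with a window, 18 (0.124%) held it. ERSE-II was present in 3 of 30 (10%): HYOU1, HERPUD1 and SDF2L1, against 16 of 14492 (0.110%). TGACGTG lay in DNAJC10 and HYOU1, against 412 genes (2.84%), and the HYOU1 match overlaps its ERSE-II. TTGCATCA lay in HERPUD1, against 136 genes (0.938%). The following matches are shown because they mark the genes by the element they hold. Each is on the strand that reads the motif, with the motif in capitals and 5 flanking bases on each side.
HSPA5, ERSE, chr9:125241386-125241414, minus strand: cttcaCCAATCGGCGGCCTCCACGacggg
HSP90B1, ERSE, chr12:103930211-103930239, plus strand: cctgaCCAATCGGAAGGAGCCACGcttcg
CALR, ERSE, chr19:12938379-12938407, minus strand: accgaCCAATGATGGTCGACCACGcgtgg
CANX, ERSE, chr5:179698773-179698801, plus strand: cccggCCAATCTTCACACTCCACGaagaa
XBP1, ERSE, chr22:28800598-28800626, minus strand: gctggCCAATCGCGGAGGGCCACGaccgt
HYOU1, ERSE-II, chr11:119057375-119057395, plus strand: ctgggATTGGACCACGtcacg
HERPUD1, ERSE-II, chr16:56932020-56932040, plus strand: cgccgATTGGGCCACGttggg
SDF2L1, ERSE-II, chr22:21642109-21642129, minus strand: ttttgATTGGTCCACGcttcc
DNAJC10, XBP1 core, chr2:182716128-182716144, minus strand: taggtTGACGTGgcggt

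The search took exact matches only, and near matches were not sought. DNAJC3, the called gene with the larger change under doxycycline, held no exact match to the 4 motifs in its window. Its 250 bases before the start, chr13:95676889-95677138 on the plus strand, are shown whole for that reason, with 72.4% G or C.
DNAJC3 promoter: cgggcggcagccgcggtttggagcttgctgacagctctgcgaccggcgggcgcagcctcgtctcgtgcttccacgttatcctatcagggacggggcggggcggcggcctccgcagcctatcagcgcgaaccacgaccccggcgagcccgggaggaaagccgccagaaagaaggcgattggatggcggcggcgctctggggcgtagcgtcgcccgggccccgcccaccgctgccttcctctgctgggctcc

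Under doxycycline most of these genes did not differ beyond the spread between arrays by the test used. The exceptions were DNAJC3 and DNAJC10, J-domain co-chaperones of HSPA5, which fell on the arrays labelled SKBrM3. There, 2 of the 33 genes were called at an adjusted p under 0.05 (3.43% of all 13002 genes were called), and both were lower (2.28% of all genes were called lower). At an unadjusted p under 0.05 there were 5 of 33, against 20.2% of all genes. In 231BrM 0 of 33 were called (0.162% of all genes). At an unadjusted p under 0.05, limma gave 3 there, DNAJC3, PDIA5 and SEC24D, or 9.09% of the 33 against 9.89% of all genes. The median change of the 33 was -0.03 in 231BrM and -0.02 on the arrays labelled SKBrM3, beside 0.05 and 0.01 over all genes tested.

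DNAJC3 encodes a lumenal co-chaperone that is also known as an inhibitor of eIF2alpha kinases. Its probe set with the highest level, 11717374_at, read 8.30 and 8.0 without and 7.71 and 7.32 with doxycycline in 231BrM. On the arrays labelled SKBrM3 it read 7.41 and 7.18 without and 6.40 and 6.39 with doxycycline. In both lines each doxycycline array lay under both controls. The fall was 0.90 ± 0.15 on the log2 scale (SE), or 1.87-fold, on the arrays labelled SKBrM3 (limma, adjusted p = 0.0188). In 231BrM the change was -0.63 ± 0.15 and was not called (adjusted p = 0.252). Without the array that stands apart it was -0.83 and was called (adjusted p = 0.0387), with 1 doxycycline array whose spread is taken from the other groups. That fit called 1 of 33 genes in 231BrM, against 0.615% of all genes.

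The other probe sets of DNAJC3 also read lower with doxycycline. The second, 11717373_at, gave 5.45 and 5.92 for the 231BrM controls and 3.74 and 5.13 for the doxycycline arrays. In the other line it gave 5.33 and 5.15 against 4.07 and 4.13. Of its doxycycline values, 3.74 on the array that stands apart and both values labelled SKBrM3 lie under the filter level of 4.41, so the size of its change is uncertain. The third, 11717372_s_at, read 5.10 and 5.34 against 4.92 and 5.03 in 231BrM, and 4.86 and 4.86 against 4.56 and 4.66 in the other line. On all 3 probe sets, then, the doxycycline arrays of each line lay under its controls. The third probe set gave the smaller change, -0.25 in each line, against -0.63 and -0.90 on the one used.

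**Figure D1:**
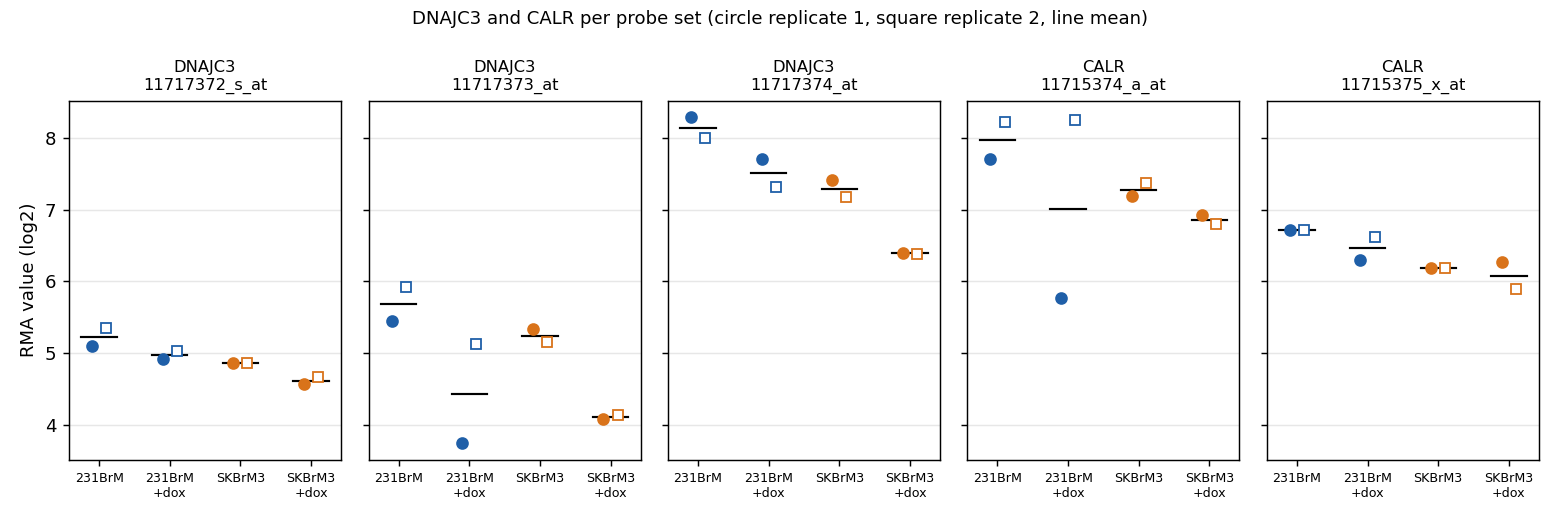
RMA value in log2 units of every DNAJC3 and CALR probe set on every array, with circles for replicate 1, squares for replicate 2 and a line at the group mean; blue is 231BrM and orange the arrays labelled SKBrM3. The doxycycline points of DNAJC3 lie under the controls in all 3 panels, whereas the CALR probe set 11715374_a_at has 1 low point at 5.77 beside its replicate at 8.26.

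DNAJC10, a disulfide reductase of the ER that serves degradation, read 9.80 and 9.75 without and 9.66 and 9.67 with doxycycline in 231BrM. On the arrays labelled SKBrM3 the values were 9.64 and 9.61 without and 9.13 and 9.25 with it. The groups of each line did not overlap. The fall on the arrays labelled SKBrM3 was 1.35-fold (log2 change -0.43 ± 0.08, limma adjusted p = 0.0232). In 231BrM the change was -0.11 ± 0.08 (adjusted p = 0.646). All 5 tested probe sets of DNAJC10 had lower means with doxycycline on the arrays labelled SKBrM3, by log2 changes from -0.55 to -0.22. In 231BrM all 5 were lower too, from -0.32 to -0.06. Fitted by themselves, 2 of the 5 were called on the arrays labelled SKBrM3 and 0 in 231BrM. The difference between the lines' effects ran from -0.46 to 0.08 over these probe sets. Both calls need every array of the comparison. Without any one of the 4 arrays labelled SKBrM3, neither gene was called there. In those fits the change of DNAJC3 ran from -1.02 to -0.78. The number of all genes called there moved too when an array was left out, as given below. Without either 231BrM control array, which only lends its spread, DNAJC10 was not called (adjusted p = 0.0589).

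Averaged over both lines, the same 2 genes were called, both lower (3.04% of all genes were called, 2.07% lower). DNAJC3 changed by -0.77 ± 0.11 (adjusted p = 0.00785) and DNAJC10 by -0.27 ± 0.05 (adjusted p = 0.0407). DNAJC3 was not called without replicate 1 of the control arrays labelled SKBrM3 (adjusted p = 0.0531). For DNAJC10 the call ended without any control array of either line or any doxycycline array labelled SKBrM3. It ended too with the replicate number as a block (adjusted p = 0.0582). The difference between the lines' doxycycline effects was called for 0 of 33 genes (0.0231% of all genes). At an unadjusted p under 0.05 limma gave 2, DNAJC10 and DNAJB9, against 11.2% of all genes. The doxycycline effect on DNAJC3 differed between lines by -0.27, with a 95% interval from -0.75 to 0.22, so equal effects and effects that differ within that interval cannot be told apart.

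The other HSP70 and HSP90 chaperones and helpers, 8 of 10 in this role, were not called in either line. HSPA5 (BiP), the main lumenal HSP70, read 11.11 and 11.11 against 11.04 and 11.07 in 231BrM. On the arrays labelled SKBrM3 it read 10.82 and 10.76 against 10.74 and 10.74. Its change on the probe set used was -0.05 in each line, with a 95% interval from -0.21 to 0.12. Over its 6 tested probe sets the changes ran from -0.27 to 0.13 in 231BrM and from -0.34 to -0.02 in the other line. None of these was called when fitted by itself. HSP90B1 (GRP94), the HSP90 of the ER, changed by -0.08 and -0.09. MANF, a secreted cofactor of HSPA5, changed by 0.06 and -0.05. HYOU1, a nucleotide exchange factor, DNAJB11 and DNAJB9, J-domain proteins, SDF2L1, a J-protein partner, and CRELD2, a secreted stress protein, ranged from -0.03 to 0.07 in 231BrM. In the other line the same 5 genes ranged from -0.01 to 0.45.

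DNAJB9 had the highest of those values. It read 6.93 and 6.91 without and 7.36 and 7.39 with doxycycline on the arrays labelled SKBrM3, a change of 0.45 ± 0.10 (adjusted p = 0.0535). In 231BrM it read 7.56 and 7.63 against 7.75 and 7.45, so those groups overlapped. On its other tested probe set, 11730731_s_at, DNAJB9 changed by 0.20 in 231BrM and 0.21 on the arrays labelled SKBrM3, and neither was called. DNAJB9, on the probe set used, was called higher on the arrays labelled SKBrM3 with array weights and with only the 4 arrays of the comparison. It was called higher on the arrays labelled SKBrM3 when the 231BrM array that stands apart was left out. That fit called 3 of 33 genes there, against 12.5% of all genes. The same fit called 2 of 33 for the average (5.28% of all genes) and 0 of 33 for the difference (0.0385% of all genes).

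None of the 11 lectin chaperones and disulfide enzymes tested was called in either line, with 1 unadjusted p under 0.05 in each by limma (PDIA5 and ERO1A). CALR, calreticulin, a lectin chaperone that binds monoglucosylated glycoproteins, had the widest spread of the 33. Its probe set 11715374_a_at read 7.71 and 8.23 on the 231BrM controls and 5.77 and 8.26 with doxycycline. In the other line it read 7.19 and 7.37 against 6.93 and 6.80. In 231BrM the low value belongs to the array that stands apart, and its replicate lies above both controls. The change of -0.95 ± 0.62 in 231BrM was not called (adjusted p = 0.617). It was 0.29 without replicate 1 and -2.20 without replicate 2 of the doxycycline arrays. The difference between lines for CALR moved likewise from 0.54 to -0.71 and 1.78.

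CALR on the arrays labelled SKBrM3 changed by -0.42, with a 95% interval from -1.83 to 1.00 when all 8 arrays set the spread (adjusted p = 0.753). Fitted on those 4 arrays alone, the same change was called (adjusted p = 0.0369). Its second probe set, 11715375_x_at, read 6.72 and 6.72 against 6.30 and 6.63 in 231BrM. For the arrays labelled SKBrM3 it read 6.19 and 6.18 against 6.27 and 5.89. There the doxycycline arrays straddled the controls.

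CANX, calnexin, the membrane partner of calreticulin, changed by 0.01 in 231BrM and -0.00 on the arrays labelled SKBrM3. Over its 9 probe sets the changes ran from -0.12 to 0.10 and from -0.37 to 0.03, with 0 called. P4HB, the protein disulfide isomerase, changed by -0.16 and 0.09. SEs were 0.07 for CANX and 0.11 for P4HB. PDIA6, another disulfide isomerase, changed by 0.07 and -0.13. PDIA3 and PDIA4, also disulfide isomerases, PDIA5 and ERP44, thioredoxin-fold proteins, ERO1A and ERO1B, the oxidases, and PPIB, a prolyl isomerase, ranged from -0.30 (PDIA3) to 0.21 in 231BrM. Without the array that stands apart PDIA3 changed by 0.14 in place of -0.30, PPIB by 0.15 in place of -0.16, P4HB by -0.01 and ERO1B by -0.24, and none was called. In the other line these 7 ranged from -0.23 to 0.10.

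**Figure D2:**
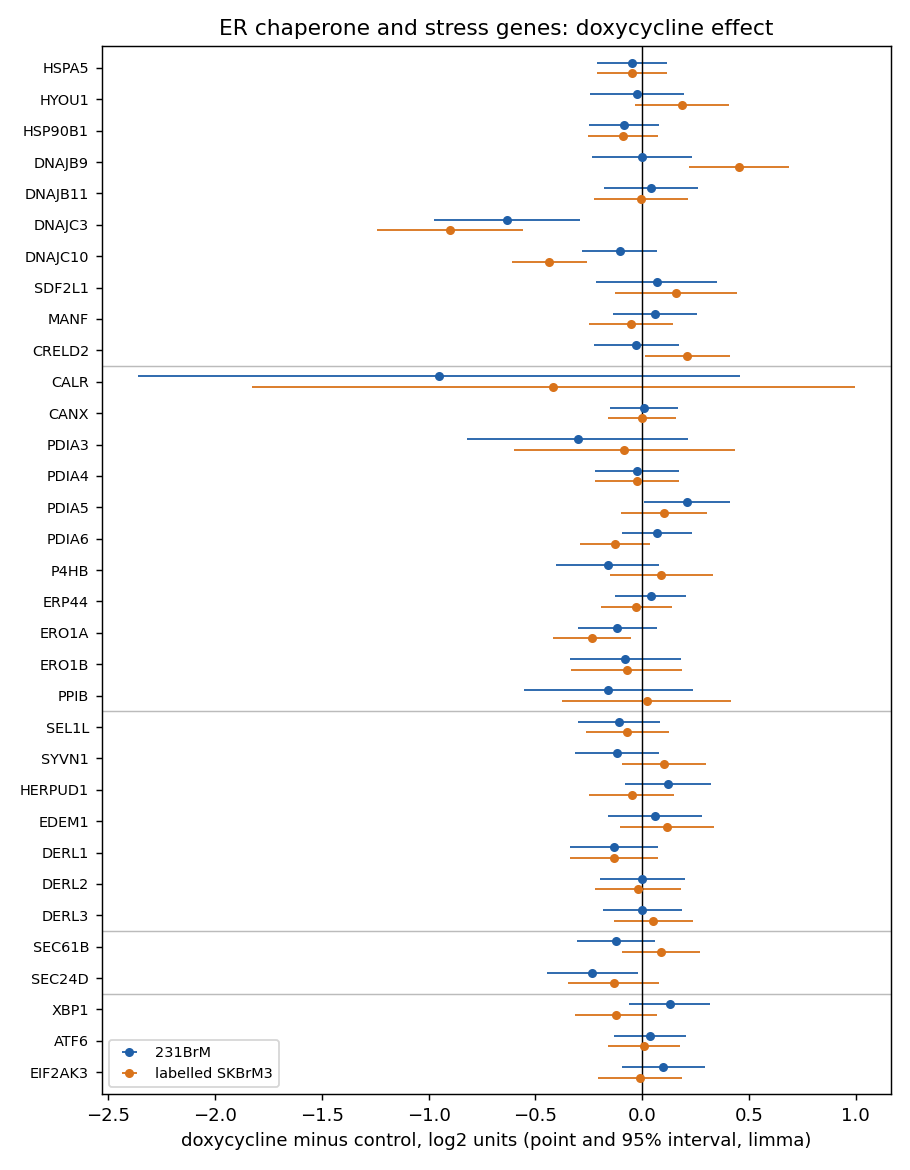
Doxycycline minus control in log2 units for each of the 33 tested genes, in the order of roles, with the 95% interval of the limma fit; blue is 231BrM and orange the arrays labelled SKBrM3. DNAJC3 lies left of 0 in both lines, at -0.63 and -0.90, DNAJC10 at -0.43 on the arrays labelled SKBrM3, and the widest intervals belong to CALR.

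Genes of ER-associated degradation, which return misfolded proteins to the cytosol for destruction, were not called either (0 of 7 in each line, and 0 of 7 at an unadjusted p under 0.05, by limma). DERL2, a derlin of the exit channel, changed by 0.00 and -0.02. EDEM1, which trims mannose from misfolded glycoproteins, changed by 0.06 and 0.12. DERL1, a second derlin, changed by -0.13 in each line on the probe set used. Over its 3 probe sets it ran from -0.13 to -0.05 in 231BrM and from -0.40 to -0.13 on the arrays labelled SKBrM3, with 0 called. SEL1L and SYVN1, adaptor and ubiquitin ligase of one complex, HERPUD1, its scaffold, and DERL3 ranged from -0.12 to 0.12 in 231BrM. The same 4 ranged from -0.07 to 0.10 on the arrays labelled SKBrM3. SEC61B, a translocon subunit, changed by -0.12 and 0.09, and SEC24D, a cargo adaptor of export vesicles, by -0.23 and -0.13. Neither of them was called.

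Of the sensors and XBP1, 0 of 3 tested were called in each line (limma; 0 of 3 at an unadjusted p under 0.05). XBP1 read 8.39 and 8.41 against 8.60 and 8.45 in 231BrM, and 8.08 and 8.19 against 7.99 and 8.03 in the other line. The doxycycline arrays lay above the controls in 231BrM and under them on the arrays labelled SKBrM3. The difference, -0.25, was not called (adjusted p = 0.476). ATF6 changed by 0.04 and 0.01, and EIF2AK3 by 0.10 and -0.01. The probe sets do not separate spliced from unspliced XBP1 in the annotation used here.

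Genes whose doxycycline arrays lay under both controls in both lines numbered 6 of 33 (5.56% of all genes): HSPA5, HSP90B1, DNAJC3, DNAJC10, ERO1A and SEC24D. Only PDIA5 lay above in both (9.48% of all genes). With every array centred on its median, 6 again lay under (7.53%) and PDIA5 again above (7.61%). Of the 6, DNAJC3, DNAJC10 and SEC24D were in both counts. PDIA4, ERO1B and DERL1 took the places of HSPA5, HSP90B1 and ERO1A. Changes in 231BrM were small for all of these, at -0.03, -0.08 and -0.13 for the genes that came in. They were -0.05, -0.08 and -0.12 for those that left. Genes with an ERSE or ERSE-II match (11 tested) had a median change of -0.02 in 231BrM and -0.05 on the arrays labelled SKBrM3. For the 18 without an exact match the medians were -0.01 and -0.01.

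Some of these genes read low on the array that stands apart, but most did not. On the probe sets used, 11 of 33 read lower there than on replicate 2. On that array CALR, PDIA3 and PPIB read over 0.5 under replicate 2, which is 3 of 33 genes against 1.94% of all genes. PDIA3 read 9.25 on that array and 10.13 on its replicate, and PPIB 9.96 and 10.57. Counted over probe sets, 21 of the 97 tested were over 0.5 lower on it, against 7.72% of all probe sets tested. In the same group 1 of 97 was over 0.5 higher, and in the other groups 2, 0 and 0 were lower. The 21 belong to 11 genes, with 5 for HYOU1, 4 for P4HB, 3 for HSPA5 and 2 for PPIB.

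P4HB shows how probe sets of a gene parted on that array. Its probe set 11716173_a_at read 9.15, 9.56, 6.01 and 9.65 over the 4 arrays of 231BrM, controls first. The probe set used, 11716175_x_at, read 11.21, 11.08, 10.83 and 11.13 on the same arrays. On replicate 1 with doxycycline the first is far under the other 3 arrays and the second only slightly. The part of RNA length in these gaps was not tested.

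**Figure D3:**
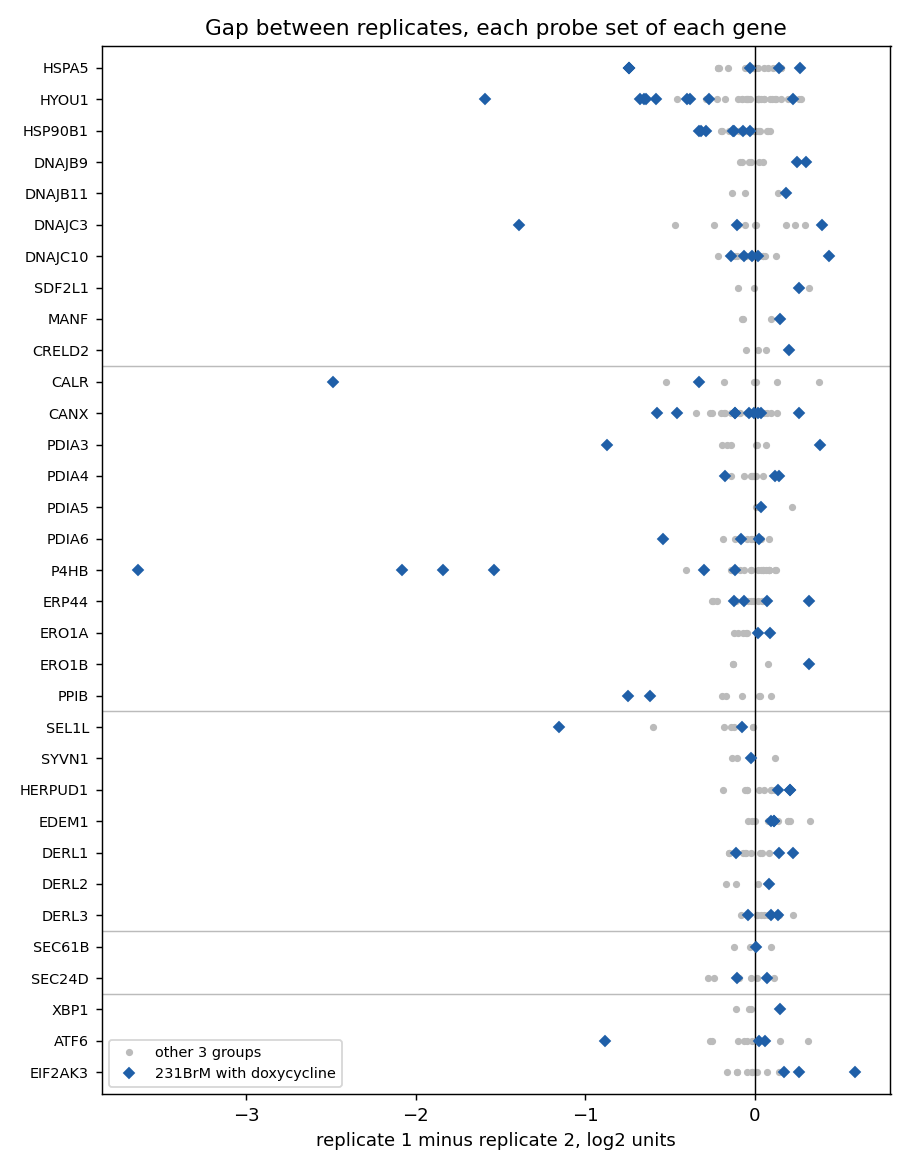
Replicate 1 minus replicate 2 in log2 units for each tested probe set of the 33 genes; blue diamonds are 231BrM with doxycycline and grey points the other 3 groups. Most grey points lie close to 0, while blue points of P4HB, CALR, HYOU1, DNAJC3 and SEL1L lie more than 1 log2 unit to the left, and other probe sets of the same genes do not.

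Without doxycycline, 17 of the 33 genes differed between the lines, beside 39.7% of all genes tested. The control arrays compared here also serve the doxycycline comparisons. Of these, 13 were higher in 231BrM (19.8% of all genes) and 4 were lower there (19.9% of all genes). The median difference, 231BrM minus the arrays labelled SKBrM3, was 0.17 for the 33 and -0.05 for all genes. Without the array that stands apart, 20 of 33 were called, beside 50.6% of all genes, with CALR, PDIA4 and SYVN1 added. Line markers differed too. Of 10 markers of a HER2-amplified luminal line tested, 4 keratins (KRT7, KRT8, KRT18 and KRT19) were higher in 231BrM, and the amplicon genes MIEN1 and PGAP3 were higher on the arrays labelled SKBrM3. The log2 summed level of that list was 12.32 to 12.34 on the 231BrM controls and 11.69 to 11.74 on the others. Of 10 mesenchymal markers, 4 were higher in 231BrM and 1 lower, with a summed level of 14.56 to 14.60 against 14.33 to 14.34. The part of cell identity in the differences below was not tested.

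Among chaperones and helpers, 6 of 10 were higher in 231BrM (19.8% of all genes) and 1 lower (19.9% of all genes). DNAJB11 (ERdj3), a soluble partner of HSPA5, read 9.94 and 10.00 in 231BrM and 9.25 and 9.11 on the arrays labelled SKBrM3, a difference of 0.79 (adjusted p = 0.00031). DNAJB9 (ERdj4) read 7.56 and 7.63 against 6.93 and 6.91, and DNAJC3 8.30 and 8.0 against 7.41 and 7.18. Both pairs of groups lay apart, by 0.68 and 0.85 (adjusted p = 0.00104 and 0.00217). HYOU1, HSPA5 and HSP90B1 were higher by 0.64, 0.32 and 0.26 on the probe sets used. Over all tested probe sets the difference ran from 0.08 to 0.69 for HYOU1 and from -0.14 to 0.32 for HSPA5. For HSP90B1 it ran from 0.26 to 0.55. With each probe set fitted by itself, 3 of 9, 2 of 6 and 7 of 7 were called, in the order HYOU1, HSPA5, HSP90B1. SDF2L1 went the other way, with 7.56 and 7.66 against 8.14 and 7.82, a difference of -0.36 (adjusted p = 0.0465). That call was lost in 7 of 17 alternative settings. DNAJC10, MANF and CRELD2 were not called, at 0.15, -0.09 and -0.00.

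The disulfide enzymes divided between the lines. ERO1A, the oxidase that feeds disulfides to protein disulfide isomerases, read 9.15 and 9.28 in 231BrM and 9.79 and 9.84 on the arrays labelled SKBrM3. The gene was 1.52-fold lower in 231BrM (adjusted p = 0.00053). PDIA6 was lower too, with 10.40 and 10.36 against 10.58 and 10.60 (difference -0.21, adjusted p = 0.0437). In 8 of 17 alternative settings PDIA6 was not called. Fitted by themselves, 0 of its 3 probe sets were called. P4HB and PDIA5 were higher in 231BrM by 0.43 and 0.33 on the probe sets used. The 6 probe sets of P4HB ran from 0.16 to 0.48, and 2 of them were called when each was fitted by itself. The other 7 tested enzymes and lectins were not called on the probe sets used. CALR differed by 0.69, with a 95% interval from -0.72 to 2.10, and the rest ran from -0.09 to 0.24. The second probe set of CALR, 11715375_x_at, gave 0.53 and was called when fitted by itself (limma, adjusted p = 0.0307). The 2 probe sets of PDIA3 gave -0.42 and -0.02, and 1 of them was called when each was fitted by itself.

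Of the degradation genes, SEL1L and DERL1 were higher in 231BrM by 0.38 and 0.37 on the probe sets used. Over all tested probe sets the difference ran from 0.12 to 0.38 for SEL1L and from 0.19 to 0.37 for DERL1. With each probe set fitted by itself, 1 of 2 and 1 of 3 were called. EDEM1 ran from -0.35 to -0.09 over its 3 tested probe sets, with 1 called when each was fitted by itself. On the probe set used it was lower, with 9.14 and 8.93 against 9.45 and 9.31 (difference -0.35, limma adjusted p = 0.0187). It was not called without replicate 2 of the 231BrM controls or replicate 1 of the controls labelled SKBrM3. SYVN1, HERPUD1, DERL2 and DERL3 were not called, from -0.01 to 0.24. SEC24D parted the lines most of the 33 genes, with 8.48 and 8.46 against 6.59 and 6.61, a 3.66-fold difference (adjusted p = 2.39e-06). Its other tested probe set differed by 0.06, from 4.50 and 4.78 in 231BrM to 4.63 and 4.52. SEC61B was not called (0.17).

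Of the sensors, ATF6 read 7.69 and 7.63 in 231BrM and 6.95 and 6.97 on the arrays labelled SKBrM3, a difference of 0.70 (adjusted p = 0.00015). XBP1 was higher by 0.27 (adjusted p = 0.0334). EIF2AK3 was not called on the probe set used, at 0.17. On 2 other probe sets of EIF2AK3 the differences were 0.66 and 0.76. Fitted by themselves, 2 of its 3 tested probe sets were called. The 11 tested genes with an ERSE or ERSE-II match had a median line difference of 0.11, with 6 called. The 18 without an exact match had a median of 0.20, with 9 called, beside the 39.7% of all genes called.

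**Figure D4:**
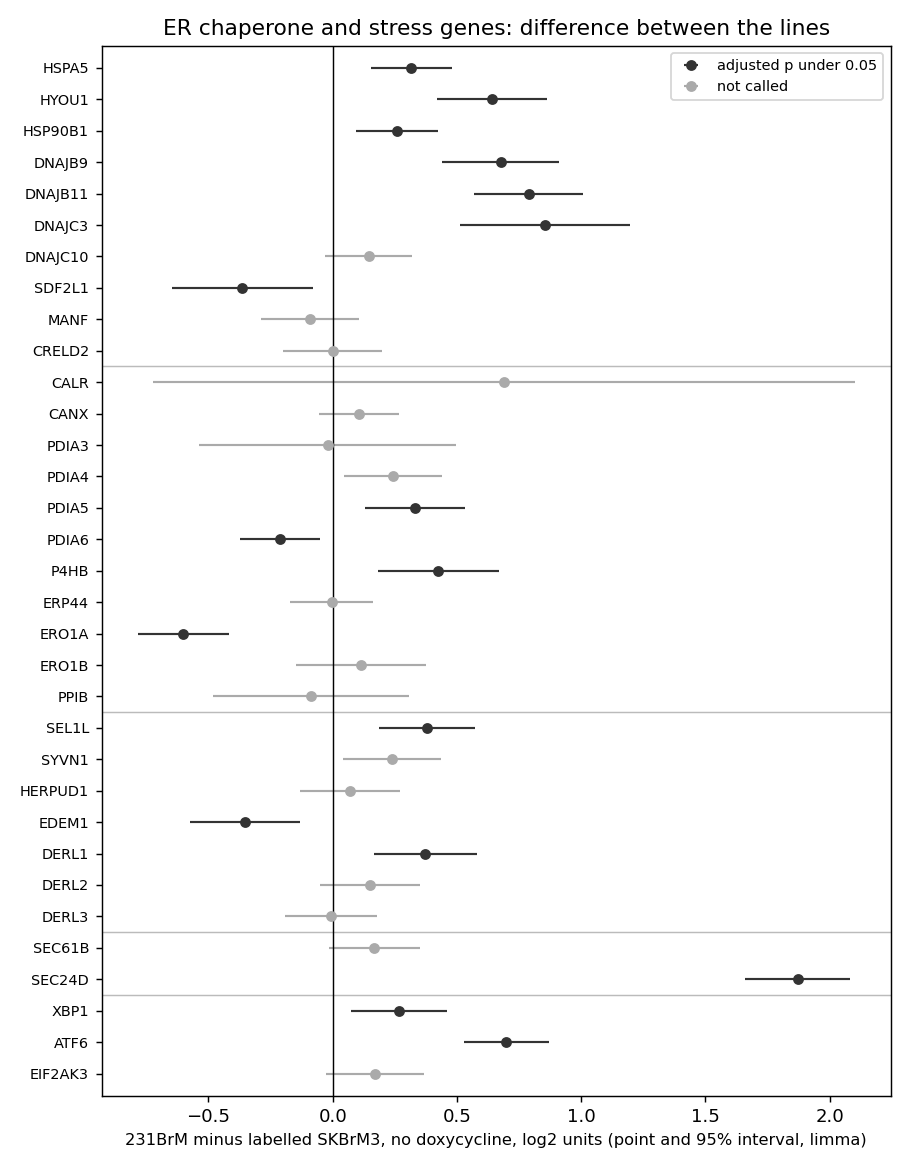
Difference between the lines without doxycycline, 231BrM minus the arrays labelled SKBrM3, in log2 units with the 95% interval of the limma fit, for the 33 tested genes by role; dark points are called at an adjusted p under 0.05. SEC24D stands farthest right at 1.87, and ERO1A farthest left at -0.60.

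Beyond the 35 genes, 102 other genes of the same pathways were examined in 6 lists, and 96 were tested. In 231BrM 0 of the 96 were called, beside 0.162% of all genes (limma). At an unadjusted p under 0.05 there were 2, beside 9.89% of all genes. On the arrays labelled SKBrM3 0 of the 96 were called, beside 3.43% of all genes (limma). At an unadjusted p under 0.05 there were 20, beside 20.2% of all genes. Their median changes were 0.01 and 0.02. For the average of both lines 1 of the 96 was called, beside 3.04% of all genes. That gene was EIF2AK4 (GCN2), an eIF2alpha kinase that senses uncharged tRNA. It read 7.77 and 7.75 against 7.97 and 8.02 in 231BrM, and 7.92 and 7.96 against 8.18 and 8.29 on the arrays labelled SKBrM3. The rise was 0.27 ± 0.05 (adjusted p = 0.042). That 1 call is unstable: the count was 0 with the replicate number as a block and without any control array or any doxycycline array labelled SKBrM3. It was 2 to 3 with a stricter filter, the mean of all probe sets or robust moderation. It moved as well when a 231BrM doxycycline array was left out. The count over all genes moved too when an array was left out, as given below.

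By list, the range of changes was widest in vesicle export (13 tested, -0.50 to 0.22 in 231BrM and -0.61 to 0.23 in the other line). It was narrowest in 231BrM for the translocon and signal peptidase (16 tested, -0.03 to 0.22). Genes of stress signalling and the PERK branch (20 tested) ran from -0.20 to 0.24 and from -0.50 to 0.29. Between the lines without doxycycline 31 of the 96 were higher in 231BrM (19.8% of all genes) and 16 lower (19.9% of all genes), with a median difference of 0.10.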

How the data were processed

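The deposited values are log2 values, 1 per probe set and array (49386 probe sets), made by the authors with RMA per the submitters' processing notes. RMA corrects background, quantile-normalizes and summarizes probes, so a change of total RNA cannot be seen. For the software, version and chip definition: not given in the sources used here. Values ran from 2.73 to 13.3, with array medians from 4.92 to 4.97. Scanner signals and detection calls were not analysed here, and the number of arrays limits the precision.

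Probe sets naming 1 gene (45253) were kept, those naming several (1327) or none (2713) and 93 control probe sets left out, and 45178 symbols updated by gene ID through RefSeq. Each gene took its probe set of highest mean. Genes above 4.41 (the 40th percentile) on at least 2 arrays were tested: 13002 of 18239.

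Groups came from the labels. Limma 3.58.1 (R 4.3.3) fitted 4 group means over 8 arrays (4 residual and 4.60 prior degrees of freedom), two-sided, with Benjamini-Hochberg adjustment over all genes tested. A gene is called at an adjusted p under 0.05. For 1 line, the effect of doxycycline had a median standard error of 0.0968. The fit was tested on simulated data. Values on every array are given for MET, for DNAJC3 and CALR per probe set, for each gene called under doxycycline and for up to 5 called per direction between the lines. Others are given by role, with up to 3 of the highest level as examples. HSPA5, DNAJB9, XBP1, PDIA3, PPIB and P4HB were shown in more detail after their values were seen. Alternatives were other filters, the mean of all probe sets, every probe set by itself, trend and robust moderation, array weights, a replicate block, median centring, only the arrays compared, and each array left out. Genes and lists were chosen with earlier results of these data known. A planned look at protein sequences was not analysed here.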

Additional observations from a re-analysis of the deposited data

How the results depend on the processing

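Counts of called genes rest on 2 arrays per group. Of the 33 genes, the arrays labelled SKBrM3 gave 2. With the mean of all probe sets (32 tested) they gave 1, and with only the 4 arrays of the comparison 4. The fit on only those 4 arrays called more of all genes too, as given below. The average gave 1 with the mean of all probe sets and 1 with the replicate block, against 2. Leaving out 1 array at a time gave 0 to 3 in 231BrM, 0 to 3 on the arrays labelled SKBrM3, 0 to 6 for the average, 0 to 2 for the difference and 9 to 20 between the lines. CALR changed sign: its doxycycline effect in 231BrM ran from -2.20 to 0.29 and its difference between lines from -0.71 to 1.78, both extremes being fits without one of the 231BrM doxycycline arrays.

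Counts over all genes moved more. In 231BrM 21 genes became 45 with trend and robust moderation, 11 with array weights, 43 with median centring, 13 with every probe set by itself and 1 with only the 4 arrays, and 3 to 1650 without 1 array. On the arrays labelled SKBrM3 446 became 1605 with array weights, 1248 with only the 4 arrays, 294 with every probe set by itself and 52 to 1631 without 1 array. For the average, 395 became 614 with median centring and 98 to 2887 without 1 array. For the difference, 3 became 13, 6 and 0 with moderation, centring and every probe set, and 0 to 473 without 1 array. Between the lines 5167 became 3323 to 6575 without 1 array. Among the other pathway genes the counts of called genes moved as well. As the counts over all genes moved too, this is not read as a result about those genes. The correlation over genes of the replicate gaps was 0.239 between the 231BrM groups, which include the array that stands apart. It was -0.012 between the groups labelled SKBrM3, -0.058 between the controls and -0.110 between the doxycycline groups. Whether arrays of the same number were handled together cannot be told from these values. The main fit does not pair them. The cause of these shifts was not tested.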

Other observations

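Between the lines without doxycycline, the largest differences among the other pathway genes lay outside the chaperones described above. These genes were chosen after their values were seen. FKBP11, a prolyl isomerase of secretory cells, averaged 4.89 in 231BrM and 7.02 on the arrays labelled SKBrM3, a difference of -2.13 (limma, adjusted p = 7.69e-07). FKBP9, of the same enzyme family, went the other way, at 6.82 against 5.31 (1.51, adjusted p = 0.00107). The ER-anchored transcription factors CREB3L2 and CREB3L1 were higher in 231BrM by 1.45 and 1.27. CLGN, a relative of calnexin, was higher by 1.21, and UBE2J2 and RNF5, a ubiquitin-conjugating enzyme and ligase of ER-associated degradation, by 1.23 and 1.09. MBTPS2, the protease that makes the second cut in ATF6, was lower in 231BrM by 0.91 (log2 difference -0.91), whereas ATF6 was higher.

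Under doxycycline, 2 other pathway genes on the arrays labelled SKBrM3 came close to the threshold without passing it. SEC24A, an adaptor of export vesicles, changed by -0.53 (adjusted p = 0.0561). DDIT3, the transcription factor CHOP of the PERK branch, changed by -0.50 (adjusted p = 0.0568). In 231BrM the changes were -0.26 and 0.11, and neither was called.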
